A study of Mus musculus with 18 samples.

Results

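The joining segments of the T cell receptor alpha chain are short coding blocks, and a thymocyte that builds its receptor joins a variable segment to just a single block of the row. They were taken as every row of the expression table whose symbol is Traj followed by a number, which gave 59 of 34082 rows. Transcript levels had been measured by RNA sequencing in 18 libraries from thymocytes of C57BL/6 mice at postnatal day 10, and the labels name no treatment and no gene alteration for any group. The 7 sorted populations were named DN1ab (2 libraries), DN1d (2), DN1e (3), ImmV2 (2), DN1 ckit+ (3), DN2 (3) and DN4 (3). DN means double-negative, for thymocytes with neither of the coreceptors CD4 and CD8, and DN1 ckit+ cells carry the receptor Kit. The study's design text names ImmV2 as a possible reference for the others, and no source used here says what its name stands for. About 10000 cells per population had been sorted, and 1 ng of amplified cDNA entered each library. The design text speaks of biological replicates, but no label says that they came from separate animals. The p-values below therefore cover the variation from library to library, part of which may be technical.

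The alpha locus is unusual in holding a long row of joining segments ahead of a single constant gene, Trac, where the beta locus has only a few short clusters. The RAG recombinase joins a variable segment to one of them mainly at the double-positive stage, which follows DN4, and the delta locus lies between the alpha variable and joining segments. Segment numbers run down along the locus, from Traj61 on the variable side to Traj1 next to Trac. Transcripts of the locus before joining start at a promoter upstream of Traj61 and at a further promoter near Traj49. The table gives a level per segment and does not tell a joined receptor transcript from a transcript of the unjoined locus.

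The sequences of 11 segments are shown because the results turn on them. They are Traj61 and Traj60, which gave the highest values of the DN1d libraries, 6 segments that passed a test between populations, Traj32, which shared a value with 2 of these, and 2 segments used by invariant T cells. They come from GENCODE M21 transcripts of the mouse build GRCm38, lie on the plus strand of chromosome 14 and are written 5′ to 3′. Capitals mark the bases that match TTN, GGN, NNN and GG in a row (N for any base), the codon pattern of the phenylalanine-glycine-any-glycine core of a joining segment.
Traj61: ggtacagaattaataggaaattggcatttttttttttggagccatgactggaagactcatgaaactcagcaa
Traj60: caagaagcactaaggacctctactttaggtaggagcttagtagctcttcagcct
Traj59: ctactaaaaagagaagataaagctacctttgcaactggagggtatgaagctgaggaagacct
Traj58: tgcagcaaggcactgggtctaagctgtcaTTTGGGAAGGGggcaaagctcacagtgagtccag
Traj57: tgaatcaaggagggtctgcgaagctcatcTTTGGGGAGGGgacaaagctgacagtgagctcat
Traj53: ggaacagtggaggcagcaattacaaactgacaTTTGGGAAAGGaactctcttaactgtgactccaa
Traj40: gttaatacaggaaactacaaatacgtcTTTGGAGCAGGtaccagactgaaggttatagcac
Traj35: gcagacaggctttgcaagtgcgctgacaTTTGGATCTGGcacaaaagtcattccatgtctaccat
Traj32: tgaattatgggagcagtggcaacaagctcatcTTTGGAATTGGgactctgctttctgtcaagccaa
Traj18: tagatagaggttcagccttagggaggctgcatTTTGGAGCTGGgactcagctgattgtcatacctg
Traj33: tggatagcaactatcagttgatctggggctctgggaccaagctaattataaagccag
The motif was found in 45 of the 59 segments (76.3%), and on the opposite strand in 0 of them. Of the 50 segments that RefSeq lists as joining segments 43 held it, and of the 9 that RefSeq lists as pseudogenes 2 did. Traj61 and Traj60 are among the 9. Traj59 and Traj33, listed as joining segments, lacked these letters. The 59 sequences were between 29 and 72 bases long, with a median of 61.

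Values are in FPKM, fragments scaled by transcript length and by the number of mapped fragments, converted from the deposited log2 values. The lowest value of the table was 0.01 FPKM in every library, and 34.8% to 53.6% of all rows of a library were listed at it. Since a segment is much shorter than a usual transcript, dividing by length turns few fragments into a large FPKM. The depth behind a value is unknown, since the table gives no counts. The sorted values of the libraries nearly coincided. The 1000th highest value, for example, lay between 53.2 and 55.1 FPKM in the 18 libraries, and the 5000th between 7.73 and 8.19 FPKM. No source used here says how the libraries came to share this distribution, and sums and shares of FPKM given below are of table values, not of measured amounts of RNA. A fitted difference is not given where all libraries of a population were listed at the lowest value.

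Most values of the joining segments were at the lowest value, and most of the others were above 100 FPKM. Of the 1062 values of the 59 segments, 912 (85.9%) were at the lowest value, against 42.7% of all values of the table. Among the 150 values above it, 113 (75.3%) were above 100 FPKM, against 2.72% over all rows. Another 37 lay between the lowest value and 100 FPKM. These were the larger part in DN1 ckit+ and DN2, where 4 of 14 and 3 of 12 values above the lowest were above 100 FPKM, and in DN1ab. There 0 of 2 such values were above 100 FPKM in DN1ab 1 and 2 of 4 in DN1ab 2. A segment was counted as detected where it was above 1 FPKM, which held for 145 values.

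DN1d, ImmV2 and DN4 libraries had the most detected segments. DN1d 1 had 9 and DN1d 2 had 24, ImmV2 1 had 20 and ImmV2 2 had 22, and the DN4 libraries had 10, 17 and 8. DN1ab libraries had 1 and 3, and DN1e libraries had 2, 1 and 2. DN1 ckit+ libraries had 6, 5 and 3, and DN2 libraries had 4, 5 and 3. Each of the 7 libraries of DN1d, ImmV2 and DN4 was therefore above each of the other 11, whose highest count was 6. The share of all rows above 1 FPKM was 30.2% to 31.2% in every library, a share that the common distribution of the table largely fixes. The 4 libraries of DN1d and ImmV2 held 75 of the 145 detected values (51.7%). In such sorted bulk samples, fewer cells that carry a transcript and less of it per cell cannot be told apart.

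**Figure D1:**
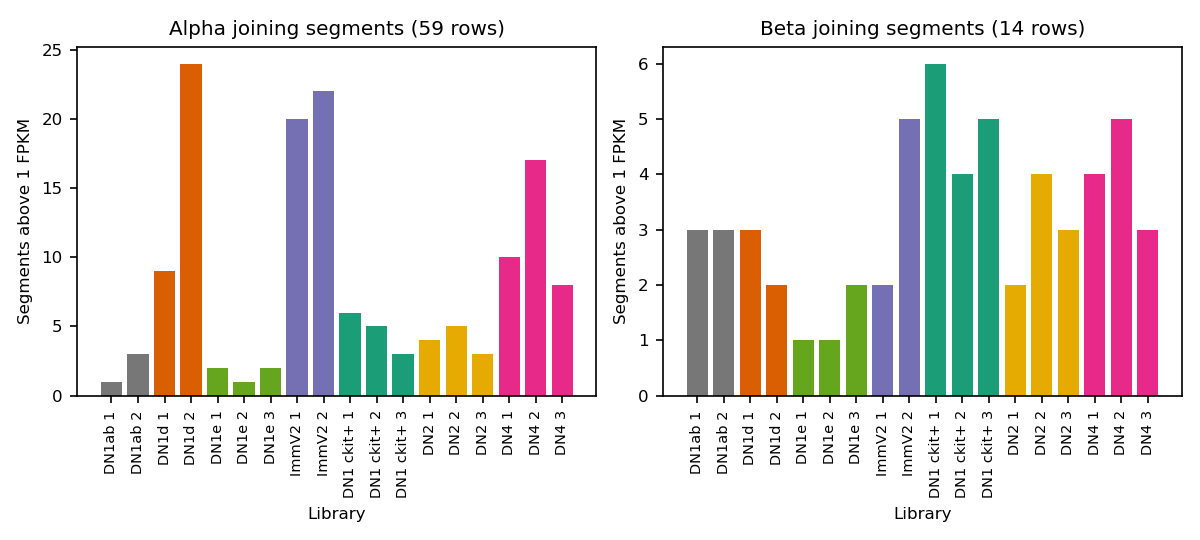
Number of segments above 1 FPKM in each of the 18 libraries, for the 59 alpha joining segments (left) and the 14 beta joining segments (right), with bars coloured by population. The alpha counts reach 24 in DN1d 2 and are 6 or fewer in every DN1ab, DN1e, DN1 ckit+ and DN2 library, while the beta counts lie between 1 and 6.

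The summed level of the 59 segments separated the same libraries. It was 14640 and 41020 FPKM in DN1d, 21518 and 41446 FPKM in ImmV2, and 10066, 12761 and 4297 FPKM in DN4. In the other populations the sums were 6.53 and 444 FPKM for DN1ab, 1170, 804 and 1860 FPKM for DN1e, 642, 440 and 55.6 FPKM for DN1 ckit+, and 1653, 1227 and 37.9 FPKM for DN2. The lowest sum in DN1d, ImmV2 and DN4 was thus above the highest elsewhere. As a share of a library's summed FPKM, the segments took 0.814% and 2.97% in DN1d, 1.17% and 3.02% in ImmV2, and 0.544%, 0.925% and 0.285% in DN4. They took 0.101% or less in each other library.

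Marker transcripts of other cell types were also present. Whether they came from other cells or from the sorted cells themselves was not tested. The 5 B cell markers used here summed to 994 and 1248 FPKM in DN1d, against 36.7 to 78.7 FPKM in ImmV2, and the DN1d sums were mostly the immunoglobulin light chain gene Igkc (843 and 1205 FPKM). Both ImmV2 libraries listed Cd79a and Ms4a1 at the lowest value, and DN1d 1 did so for Cd79a and Cd79b. The heavy chain gene Ighm was at 142 FPKM in DN1d 1 but at the lowest value in DN1d 2, and ImmV2 libraries had 25.2 and 78.2 FPKM of it. The 6 myeloid markers summed to 694 to 1236 FPKM in DN1e and to at most 140 FPKM elsewhere. In DN1e, Fcer1g lay between 278 and 700 FPKM, Lyz2 between 226 and 406 FPKM and C1qa between 74.8 and 108 FPKM. Tyrobp was at 22.0, 42.3 and 4.88 FPKM there, and Itgam at 0.01, 4.29 and 161 FPKM. Csf1r was at 0.0837 FPKM or less in DN1e and reached 7.15 FPKM in DN4 2. The 7 T lineage markers summed to 312 to 325 FPKM in DN1d, 386 to 578 FPKM in ImmV2 and 335 to 526 FPKM in DN4. They summed to at most 220 FPKM in the other populations, lowest in DN1 ckit+ at 31.3 to 67.7 FPKM. The 6 double-positive thymocyte markers summed to 82.0 to 161 FPKM in DN4 but to 15.0 to 24.7 FPKM in DN1d and 7.15 to 11.4 FPKM in ImmV2. In DN4, Rag1 was at 59.1, 53.9 and 59.6 FPKM and Dntt at 0.191, 86.1 and 61.3 FPKM. Rag2 lay between 6.37 and 22.8 FPKM there and Cd8b1 between 7.86 and 14.3 FPKM. Cd4 was at 2.96 FPKM or less in DN4, and Cd8a at 3.79 FPKM or less. In DN1ab the 6 markers summed to 222 to 227 FPKM beside 1 and 3 detected segments. However, Cd8b1 alone was at 224 and 207 FPKM there and each of the other 5 was at 7.44 FPKM or less. The part of these cell types in the segment levels was not tested.

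Which segments were detected differed between libraries of 1 population. DN1d libraries shared 5 of their 28 detected segments (Traj60, Traj59, Traj58, Traj53 and Traj48). ImmV2 libraries shared 10 of 32 (Traj61, Traj59, Traj58, Traj57, Traj56, Traj53, Traj40, Traj35, Traj32 and Traj27). In DN4, 2 of 28 segments were detected in every library (Traj58 and Traj5) and 5 in at least 2 libraries. DN1ab shared 0 of 4, DN1e 0 of 5, DN1 ckit+ 0 of 14 and DN2 0 of 12. Of the 15 pairs of libraries of the same population, 10 shared no detected segment, and the largest overlap was the 10 of ImmV2. Of the 138 pairs from different populations, 66 shared none and the largest overlap was 14 segments. The same sharing was not worked out for all rows. Values that differ this much between libraries of 1 population were not confined to the segments. Actb, for example, was at 0.215, 1585 and 0.0292 FPKM in DN2 and at 0.01 and 1045 FPKM in ImmV2. In DN4 it was at 952, 965 and 675 FPKM.

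Over the 18 libraries, 53 segments were detected at least once and 6 never. The 6, all listed at the lowest value in every library, were Traj33, Traj29, Traj18, Traj17, Traj9 and Traj8. Traj18 is the segment of invariant natural killer T cells and Traj33 that of mucosal-associated invariant T cells. Of the others, 14 segments were detected in 1 library, 12 in 2, 13 in 3, 7 in 4 and 5 in 5. Traj59 was detected in 6 libraries and Traj58 in 9. Traj58 was the only segment with a median over the 18 libraries above the lowest value, 3.12 FPKM. Traj58 and Traj22 were each detected in 5 of the 7 populations.

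**Figure D2:**
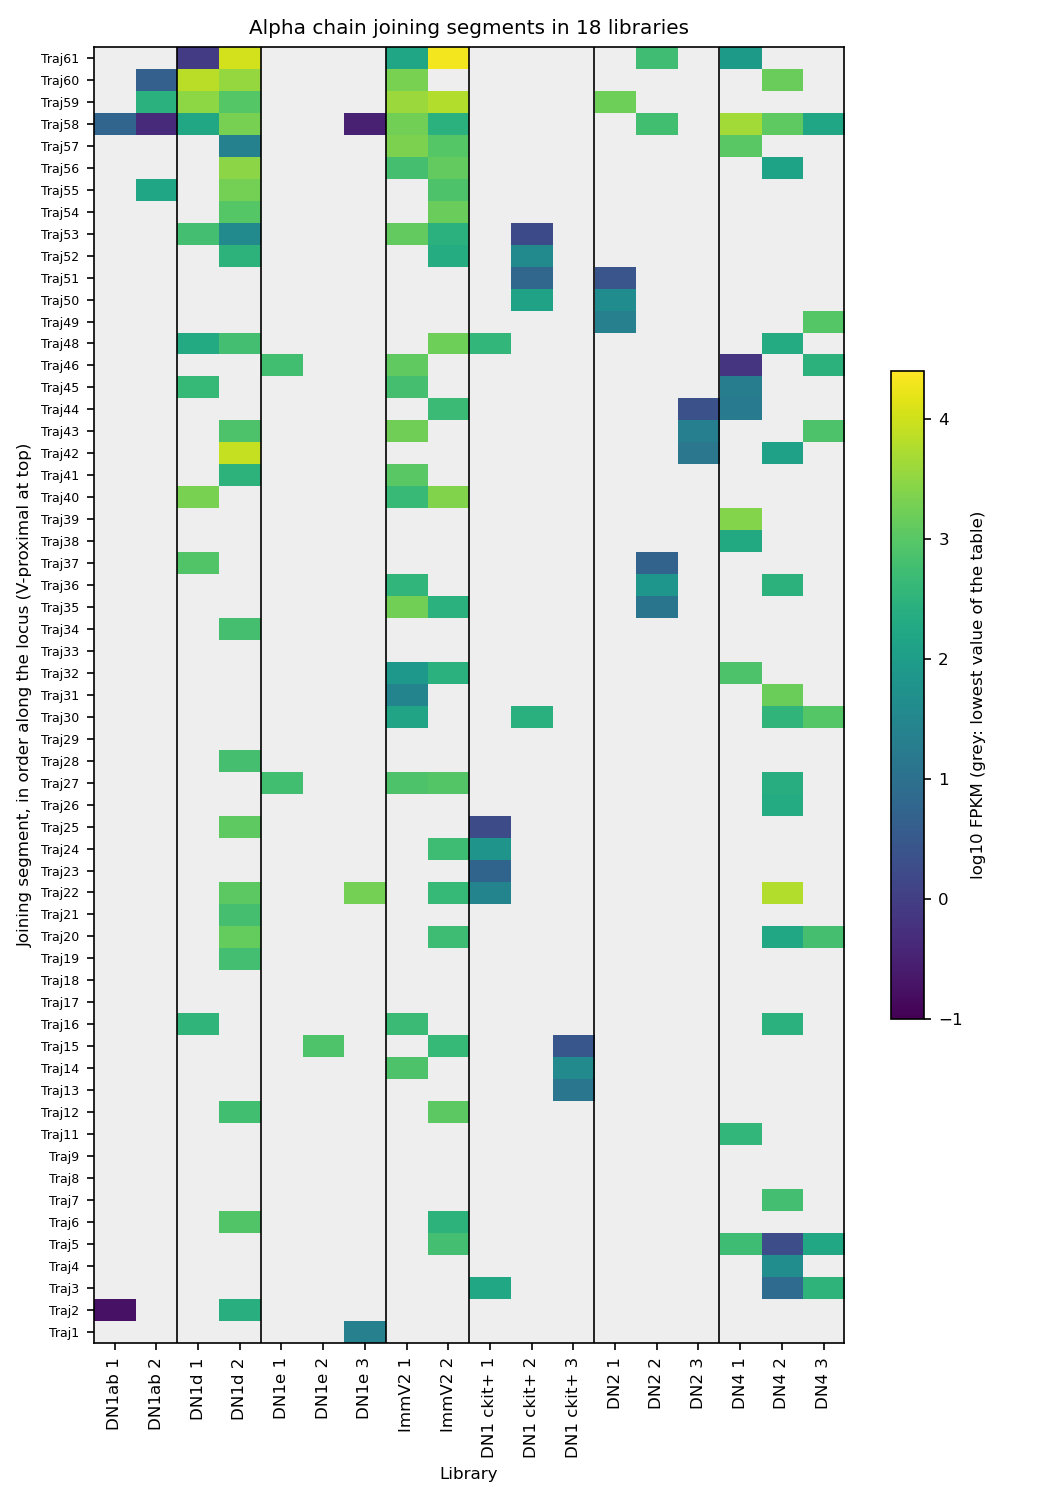
Level of each of the 59 segments (vertical axis, ordered along the locus with the variable side at the top) in each of the 18 libraries (horizontal axis), as log10 FPKM by colour, with grey for the lowest value of the table. Coloured cells crowd at the top of the DN1d and ImmV2 columns, and 912 of the 1062 cells are grey.

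Over all libraries, segments on the variable side of the locus were detected more often. Traj61 to Traj42 (19 rows) were above 1 FPKM in 73 of 342 values (21.3%), Traj41 to Traj22 (20 rows) in 41 of 360 (11.4%) and Traj21 to Traj1 (20 rows) in 31 of 360 (8.61%). In DN1d the 3 blocks held 19, 7 and 7 detected values, in ImmV2 21, 14 and 7, and in DN2 9, 3 and 0. DN4 had a flatter profile, with 14, 10 and 11 values, and DN1 ckit+ had 5, 5 and 4. DN1ab had all of its 4 in the first block, and DN1e went the other way with 1, 2 and 2. These shares are a description, since segments of 1 library are not independent samples.

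**Figure D3:**
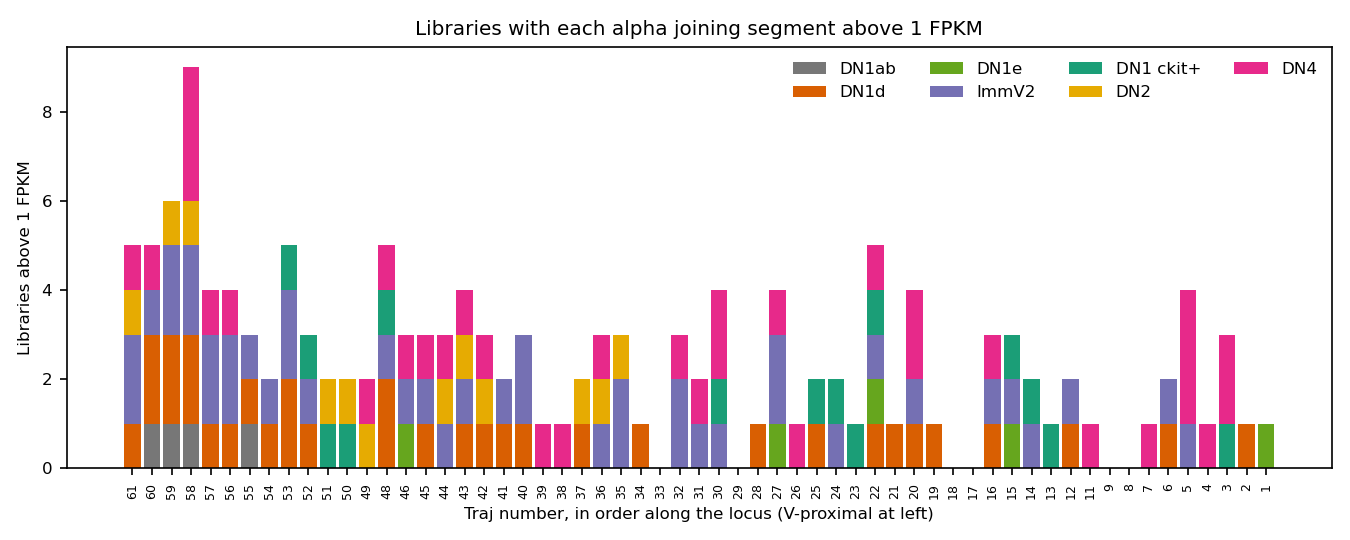
Number of libraries (vertical axis) in which each segment (horizontal axis, by number, variable side at left) was above 1 FPKM, stacked by population. Traj58 stands highest with 9 libraries and Traj59 follows with 6, and 6 segments have no bar.

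The variable end itself carried the longest unbroken stretch of the data. In DN1d 2 the 10 neighbouring segments from Traj61 to Traj52 were all above the lowest value, between 23.3 FPKM for Traj57 and 10560 FPKM for Traj61. In ImmV2 1 the 6 segments from Traj61 to Traj56 lay between 153 and 3939 FPKM. In ImmV2 2 the 8 segments from Traj59 to Traj52 lay between 218 and 5940 FPKM. In DN1d 1 the run was shorter, from 0.914 FPKM for Traj61 through 6888 FPKM for Traj60 and 3103 FPKM for Traj59 to 161 FPKM for Traj58. No DN4 library had such a run there, although Traj58 was high in all 3.

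Traj61, the segment closest to the upstream promoter, was at 153 FPKM in ImmV2 1 and 20441 FPKM in ImmV2 2, and at 0.914 FPKM in DN1d 1 and 10560 FPKM in DN1d 2. It was at 554 FPKM in DN2 2, at 89.6 FPKM in DN4 1 and at the lowest value in the other 12 libraries. The DN1d and ImmV2 values overlapped, and no comparison with ImmV2 passed (adjusted p between 0.184 and 0.923, limma). Traj60, a pseudogene segment, had 6888 and 3590 FPKM in DN1d, 2042 FPKM in ImmV2 1 and the lowest value in ImmV2 2. Elsewhere it was above the lowest value in DN4 2, at 1479 FPKM, and in DN1ab 2, at 4.46 FPKM. Traj56 was at 2905 FPKM in DN1d 2, at 644 and 1240 FPKM in ImmV2 and at 137 FPKM in DN4 2, and it was listed at the lowest value in the other 14 libraries. Neither Traj60 nor Traj56 passed a test between populations (adjusted p = 0.146 and 0.162 in limma's F test, described next).

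Differences between populations were tested with limma on log2(FPKM + 1) over the 24525 genes that reached 1 FPKM in at least 2 libraries, and p-values were adjusted by Benjamini-Hochberg over all of them. Of the 59 segments 39 entered this test and 20 did not. Segments such as Traj35 and Traj40, which outside ImmV2 reached 1 FPKM in 1 library each, entered it only through the population where they were high, so the counts below support nothing by themselves. To be called, a segment needed an adjusted p under 0.05 and a log2 difference of at least 1 in either direction. Each of 6 populations was compared with ImmV2, so these comparisons share the 2 ImmV2 libraries. All called segments were lower than in ImmV2.

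In an F test across the 7 populations 5 segments passed, where 1.4% of all tested genes did. They were Traj53 (adjusted p = 0.000881, limma), Traj35 (0.00232), Traj58 (0.0217), Traj59 (0.032) and Traj40 (0.0438). For DN1ab, 2 segments were called lower than in ImmV2 (Traj35 and Traj53), as were 0.183% of all tested genes. For DN1d there was 1 (Traj35, background 0.126%), and for DN2 there were 2 (Traj35 and Traj53, background 0.175%). For DN4 there were 3 (Traj35, Traj53 and Traj40, background 0.179%). For DN1e (background 0.29%) and for DN1 ckit+ (background 0.241%) the same 5 segments were called, Traj35, Traj53, Traj40, Traj57 and Traj59.

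Traj35 was found in ImmV2 and almost nowhere else. It was at 1794 and 279 FPKM in ImmV2, at 12.6 FPKM in DN2 2 and at the lowest value in the other 15 libraries. No overlap with ImmV2 held for 18.6% (DN2) to 28.8% (DN1ab) of all tested genes. For Traj35, both ImmV2 values were above every other value. The adjusted p against ImmV2 in limma was 0.00168 for DN1ab, 0.00335 for DN1d, 0.00199 for DN1e and 0.0012 for both DN1 ckit+ and DN4. Against DN2, which had 1 value above the lowest, the log2 difference was -8.20 ± 1.13 SE (DN2 minus ImmV2, adjusted p = 0.00486, limma). These 6 calls held without any 1 of the 18 libraries. With only the compared populations in the fit they ended, at adjusted p between 0.111 and 0.729 in limma. That fit called 0 of all 24525 tested genes for DN1ab, DN1d, DN1e, DN1 ckit+ and DN2. Without a pseudocount the Traj35 calls for DN1d and DN2 ended (adjusted p = 0.0662 and 0.123, limma).

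Traj53 was high in ImmV2 and DN1d. It had 1294 and 279 FPKM in ImmV2, 618 and 36.0 FPKM in DN1d, and 1.61 FPKM in DN1 ckit+ 2. In the other 13 libraries it was listed at the lowest value. ImmV2 and DN1d values overlapped, with a log2 difference of -1.99 ± 1.24 SE (DN1d minus ImmV2, adjusted p = 0.823, limma). For DN1 ckit+ minus ImmV2 the log2 difference was -8.76 ± 1.13 SE, and limma's adjusted p was 0.00238. For DN1ab, DN1e, DN2 and DN4, all at the lowest value, the adjusted p was 0.00188, 0.00212, 0.00249 and 0.00139 in limma. The 5 calls held without any 1 of the 18 libraries and ended with only the compared populations in the fit (adjusted p between 0.123 and 0.446, limma). That for DN1 ckit+ also ended without a pseudocount (adjusted p = 0.074). The spread of the main fit again included populations with every library at the lowest value, as for Traj35.

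Traj40 was at 442 and 2345 FPKM in ImmV2, at 2042 FPKM in DN1d 1 and at the lowest value in the other 15 libraries. DN1d thus held both a value between those of ImmV2 and the lowest value. The segment was called lower in DN1e (adjusted p = 0.0261, limma), DN1 ckit+ (0.0356) and DN4 (0.041), and missed the threshold for DN1ab (0.057) and DN2 (0.0504). These calls depended on single libraries. The call for DN1e ended without DN1e 2 (adjusted p = 0.052, limma), ImmV2 1 (0.0557) or ImmV2 2 (0.122). The call for DN1 ckit+ held without DN1d 1, DN1d 2 or DN2 2 and ended without any other library (adjusted p between 0.051 and 0.145, limma). The call for DN4 held without DN1d 1 or DN1d 2 and ended without any other (adjusted p between 0.0506 and 0.149, limma). The F test of Traj40 likewise ended without any library other than DN1d 1 and DN1d 2, with adjusted p up to 0.213 without ImmV2 2. The 3 pairwise calls also ended without a pseudocount (adjusted p between 0.0518 and 0.1, limma), without a filter (0.053 to 0.0903), with only the compared populations in the fit (0.111 to 0.175) and with the replicate block (0.0651 to 0.0977). The F test ended with either other pseudocount, without one, without a filter and with the block (adjusted p between 0.0514 and 0.108, limma), and pseudocounts of 0.1 FPKM (DN1 ckit+ and DN4) and 5 FPKM (DN4) ended pairwise calls too (0.0507 to 0.0597).

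Traj57 was at 2139 and 965 FPKM in ImmV2, at 23.3 FPKM in DN1d 2, at 1025 FPKM in DN4 1 and at the lowest value in the other 14 libraries. It was called lower in DN1e (adjusted p = 0.0338, limma) and DN1 ckit+ (0.0478), and it did not pass the F test (adjusted p = 0.0917). One DN4 library reached the ImmV2 range and the other 2 were at the lowest value. The call for DN1e ended without DN1e 1 (adjusted p = 0.0577, limma), DN1e 2 (0.0634), DN1e 3 (0.0527), ImmV2 1 (0.152) or ImmV2 2 (0.0761). The call for DN1 ckit+ held without DN1d 1, DN1d 2 or any DN4 library and ended without any other (adjusted p between 0.0637 and 0.172, limma). Both calls also ended with a pseudocount of 0.1 FPKM (adjusted p = 0.0556 for DN1e and 0.0915 for DN1 ckit+, limma), without a pseudocount (0.0937 and 0.162), without a filter (0.069 and 0.107), with only the compared populations (0.175 and 0.0785) and with the replicate block (0.0855 and 0.124).

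Traj59 was at 3939 and 5940 FPKM in ImmV2, at 3103 and 936 FPKM in DN1d, at 284 FPKM in DN1ab 2 and at 1585 FPKM in DN2 1. It was listed at the lowest value in the other 12 libraries, which include every DN1e, DN1 ckit+ and DN4 library. ImmV2 values were above all others, and DN1d came next without differing beyond the spread (log2 difference -1.50 ± 2.75 SE, DN1d minus ImmV2, adjusted p = 1, limma). Traj59 was called lower in DN1e (adjusted p = 0.0341) and DN1 ckit+ (0.048), and DN4, with the same lowest values, missed the threshold (0.0565). The call for DN1e ended without DN1e 1 (0.0586), DN1e 2 (0.0647), DN1e 3 (0.054), ImmV2 1 (0.116), ImmV2 2 (0.109), DN1 ckit+ 1 (0.0501) or DN4 3 (0.0509). The call for DN1 ckit+ held without any DN1ab or DN2 library and ended without any other (adjusted p between 0.0613 and 0.128, limma). The F test ended without any 1 of 13 libraries, the DN1d, DN1e, ImmV2, DN1 ckit+ and DN4 ones, with adjusted p up to 0.092 without ImmV2 2. Without a pseudocount, without a filter and with the replicate block both pairwise calls ended (adjusted p between 0.0729 and 0.156, limma), as did the F test (0.0714 to 0.119). With only the compared populations both pairwise calls ended (0.175 for DN1e and 0.0785 for DN1 ckit+), and quantile normalization (0.0544) or a pseudocount of 0.1 FPKM (0.0848) ended that for DN1 ckit+.

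**Figure D4:**
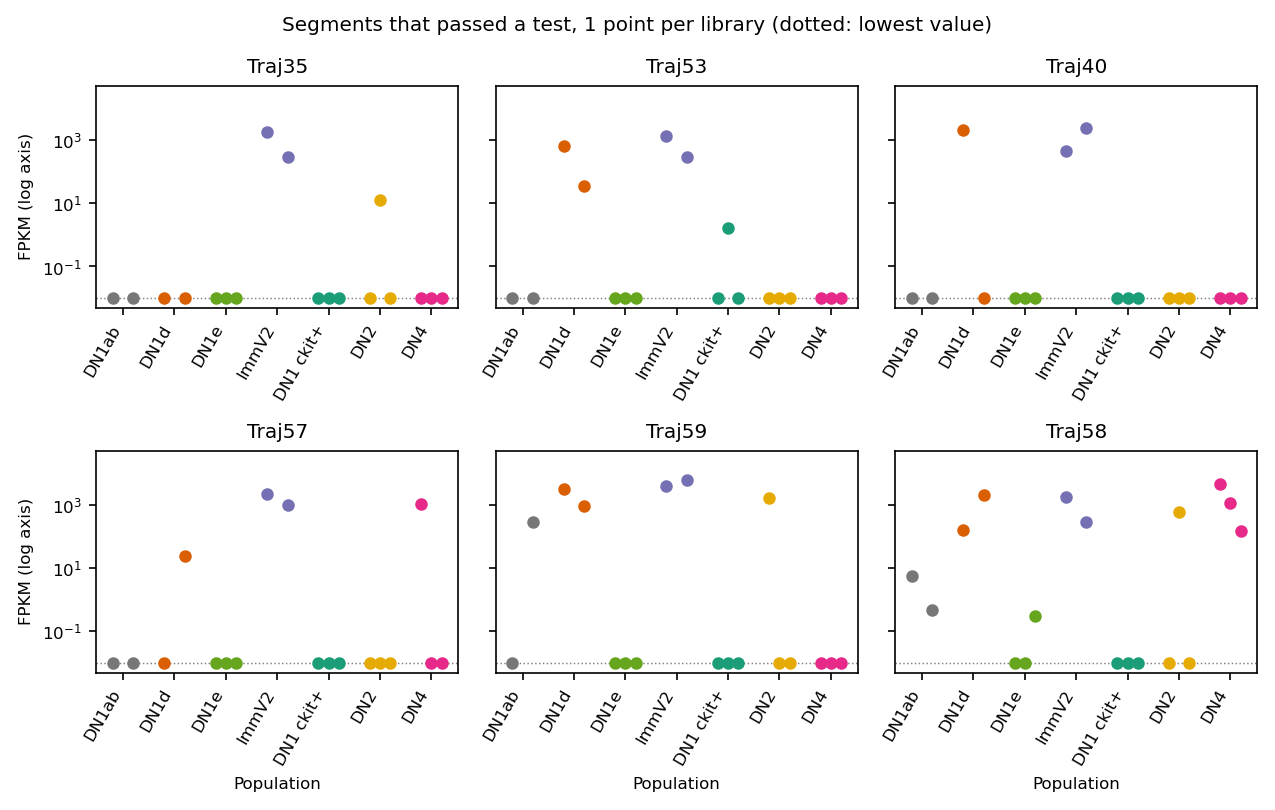
FPKM on a log axis for the 6 segments that passed a pairwise or an F test, with 1 point per library by population and the lowest value as a dotted line. ImmV2 points lie above 100 FPKM in all 6 panels, and Traj58 is the panel in which all 3 DN4 points do too.

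Traj58 was the segment detected in the most libraries. Its level in the DN4 libraries was 4586, 1141 and 149 FPKM. ImmV2 libraries had 1794 and 285 FPKM of Traj58, while DN1d 1 was at 161 FPKM and DN1d 2 at 2007 FPKM. These 3 populations overlapped and did not differ beyond their spread (log2 difference -0.33 ± 2.42 SE for DN1d and 0.36 ± 2.21 SE for DN4, each minus ImmV2, both with an adjusted p of 1 in limma). Low values were found in DN1ab, at 5.78 and 0.457 FPKM, and in DN1e 3, at 0.309 FPKM. DN2 2 had 587 FPKM, and the other 2 DN2 libraries, the other 2 DN1e libraries and all DN1 ckit+ libraries were listed at the lowest value. Among DN1ab, DN1e, DN1 ckit+ and DN2, none was called against ImmV2 (adjusted p = 0.28, 0.0672, 0.0993 and 0.489, limma). The F test call ended without DN4 2 (adjusted p = 0.0534, limma), without a filter (0.0586) and with the replicate block (0.0526).

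DN4, the last double-negative stage, was also compared with DN2 and with DN1 ckit+. Of the 59 segments 0 were called in either direction in DN4 against DN2, where 0.0815% of tested genes were, and 0 against DN1 ckit+, where 0.208% were. At an unadjusted p under 0.05 in limma, 4 of the 39 tested segments passed against DN2 and 3 against DN1 ckit+, where 5.44% and 7.1% of all tested genes did. Traj58 came closest against DN1 ckit+, with an adjusted p of 0.0529. It passed without DN2 1 (adjusted p = 0.0487, limma), DN2 2 (0.00458), DN2 3 (0.0456) or DN4 3 (0.0417), with a pseudocount of 0.1 FPKM (0.0477) and where the filter asked for 3 libraries in place of 2 (0.0445), and ranged up to 0.145 over the alternatives. Against DN2 the log2 difference of Traj58 was 6.77 ± 1.98 SE (adjusted p = 0.498, limma).

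Traj5, near the constant end, was the other segment detected in every DN4 library, at 526, 1.88 and 170 FPKM. It was at 605 FPKM in ImmV2 2 and listed at the lowest value in the other 14 libraries, so that DN4 did not overlap DN2 or DN1 ckit+. No overlap with DN4 held for 9.66% of all tested genes in DN2 and 14.6% in DN1 ckit+. Among the 39 tested segments it held for 1 and 2. Traj5 did not pass (adjusted p = 0.538 against DN2 and 0.342 against DN1 ckit+, limma). Other high DN4 values came from 1 or 2 libraries each. Traj22 reached 5940 FPKM in DN4 2, Traj39 reached 2475 FPKM in DN4 1, and Traj49 and Traj30 were both at 959 FPKM in DN4 3. Of the 28 segments detected in DN4, 6 were detected in no other population, against 5 in DN1d, 2 in DN1 ckit+, 1 in DN1e and 0 in ImmV2, DN1ab and DN2.

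Landmark segments showed how uneven the coverage was. Traj49, near the internal promoter, was above the lowest value in DN4 3 (959 FPKM) and DN2 1 (22.2 FPKM). Traj2, near the constant gene, was so in DN1d 2 (238 FPKM) and DN1ab 1 (0.180 FPKM). Pseudogene segments were above 1 FPKM in 23 of 162 values and the other segments in 122 of 900. Of the 9 pseudogene segments 8 were detected at least once, and of the 50 others 45.

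Equal values recurred among the segments. Within a library, 23 values in 11 sets were equal to that of another segment to within 1e-06 on the log2 scale, in 6 libraries. Traj53, Traj35 and Traj32 all had 279 FPKM in ImmV2 2, although the sequences printed above differ, and Traj58 and Traj35 both had 1794 FPKM in ImmV2 1. In ImmV2 1 Traj56 equalled Traj45 at 644 FPKM and Traj27 equalled Traj14 at 788 FPKM, and in ImmV2 2 Traj22 equalled Traj15 at 406 FPKM. In DN1d 2 the pairs were Traj52 and Traj41 at 305 FPKM, Traj48 and Traj19 at 620 FPKM, and Traj28 and Traj21 at 652 FPKM. The remaining pairs were Traj46 and Traj27 at 584 FPKM in DN1e 1, Traj48 and Traj26 at 206 FPKM in DN4 2, and Traj49 and Traj30 at 959 FPKM in DN4 3. Among the 13 equal pairs 4 (30.8%) had the same segment length, against 91 of the 1019 pairs (8.93%) of segments above the lowest value in 1 library. Of the segment values above 100 FPKM, 39 (34.5%) equalled some other row of the same library, against 3.36% of such values over all rows. The calls of Traj35 and of Traj53 thus rest in part on the same value, that of ImmV2 2.

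Equal values also joined different libraries. Of the segment values above 100 FPKM, 95 (84.1%) equalled the value of some row in another library, as did 97.5% of such values over all rows, so a high value was one of a set of steps common to the libraries. The value 5940 FPKM belonged to Traj59 in ImmV2 2, to Traj22 in DN4 2 and to the beta segment Trbj1-6 in DN1e 3. The value 4586 FPKM belonged to Traj58 in DN4 1 and to beta segments in DN1d 1, DN2 1 and DN2 3. Among the alpha segments alone 8 values were shared between libraries, each by different segments, and 12 values were shared with beta segments.

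Low values had a neighbour above the lowest value more often than high ones. Of the 37 values between the lowest and 100 FPKM, 32 (86.5%) had a neighbouring segment above the lowest value in the same library. Of the 113 values above 100 FPKM 51 (45.1%) did. A neighbour that was itself between the lowest value and 100 FPKM was found for 27 of the 37 low values. The low values formed 8 runs of at least 3 neighbours, holding 25 values, with 1 run in every DN1 ckit+ and DN2 library and in DN4 1 and DN4 2. In each of the 8 runs the segment on the variable side was the lowest and the next one the highest. This holds for runs capped at 100 FPKM. Without the cap there were 16 runs of at least 3 segments in 13 libraries, and some had another order. In DN1ab 2, Traj60 to Traj58 were at 4.46, 284 and 0.457 FPKM, and in ImmV2 1, Traj32 to Traj30 were at 76.8, 27.0 and 140 FPKM.

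In DN1 ckit+ 1 the run went from Traj25 to Traj22 at 1.79, 63.7, 5.54 and 27.5 FPKM. In DN1 ckit+ 2 it went from Traj53 to Traj51 at 1.61, 38.6 and 6.10 FPKM and was followed by Traj50 at 131 FPKM. In DN1 ckit+ 3 it went from Traj15 to Traj13 at 2.84, 39.3 and 12.9 FPKM, and no other segment was above the lowest value in that library. The place on the locus differed from library to library. In DN2 1 it was Traj51 to Traj49 (2.59, 42.6 and 22.2 FPKM), in DN2 2 Traj37 to Traj35 (5.14, 67.6 and 12.6 FPKM) and in DN2 3 Traj44 to Traj42 (2.16, 21.6 and 13.6 FPKM). In DN4 1 it was Traj46 to Traj44 (0.653, 19.5 and 17.6 FPKM), and in DN4 2 it was Traj5 to Traj3 (1.88, 44.2 and 7.83 FPKM). Traj47, next to Traj46, was not analysed, so whether the DN4 1 run began at Traj46 is unknown. The only segments that lay in runs of different libraries were Traj51 (DN1 ckit+ 2 and DN2 1) and Traj44 (DN2 3 and DN4 1). The value of Traj35 in DN2 2 and that of Traj53 in DN1 ckit+ 2, the ones outside ImmV2 and DN1d, belonged to such runs. Among the 14 beta joining segments 14 of 27 low values and 9 of 34 values above 100 FPKM had a neighbour above the lowest value.

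**Figure D5:**
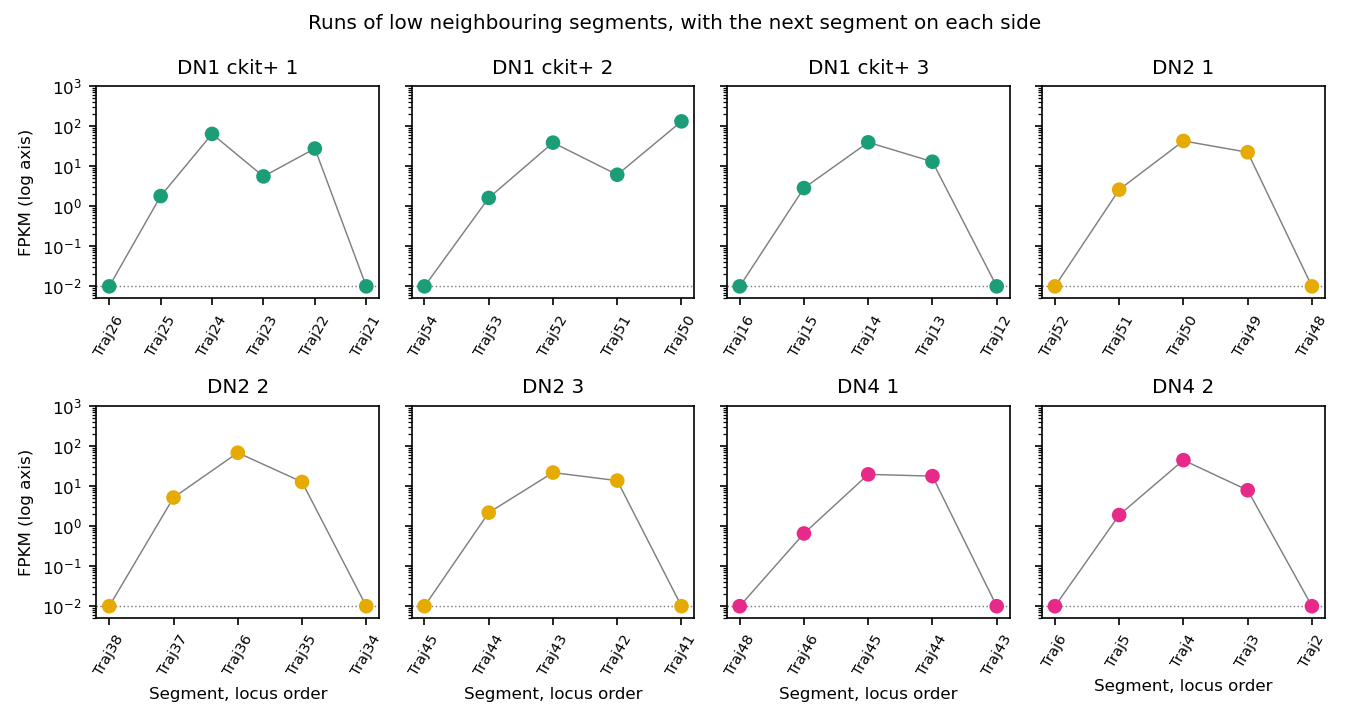
The 8 runs of at least 3 neighbouring segments with values between the lowest and 100 FPKM, 1 panel per library, with FPKM on a log axis against segments in locus order and the next segment on each side. Each run starts with its lowest value, between 0.653 and 5.14 FPKM, and peaks at its second segment, between 19.5 and 67.6 FPKM. In DN1 ckit+ 2 the next segment is at 131 FPKM, and elsewhere the flanking segments shown are at the lowest value. Before the DN4 1 run Traj48 is shown, since Traj47 was not analysed.

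Other genes of the locus and of receptor assembly gave few calls. Trac, the alpha constant gene that every joined alpha transcript carries, had 17.7 and 19.4 FPKM in ImmV2. DN1d had 27.8 and 17.2 FPKM of it, and the DN4 libraries had 8.79, 26.0 and 34.0 FPKM. It was at 12.9 and 14.4 FPKM in DN1e 1 and DN1e 2, which had 2 and 1 detected segments, and at 0.214 FPKM or less in DN1e 3 and every DN1ab, DN1 ckit+ and DN2 library. The 7 libraries with 8 or more detected segments all had Trac at 8.79 FPKM or more. Trac passed the F test (adjusted p = 0.0428, limma), a call that held without DN4 1 or any DN1e library and ended without any other (adjusted p up to 0.0868, without DN1 ckit+ 1). It also ended with pseudocounts of 0.1 FPKM (adjusted p = 0.0543, limma) and 5 FPKM (0.0687), without a pseudocount (0.116) and with the replicate block (0.1). It was called in 0 of 8 comparisons. Its log2 difference was 4.35 ± 1.02 SE for DN4 minus DN2 (adjusted p = 0.267, limma).

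Of the 6 alpha and delta locus neighbours, which are Trac, 4 delta segments and the nearby gene Dad1, 0 were called in any of the 8 comparisons. Likewise 0 of 13 tested beta joining segments and 0 of 14 tested genes of V(D)J recombination were called. Over all 24525 tested genes, between 20 (DN4 against DN2) and 145 (DN1e against ImmV2) were called in a comparison. At that rate lists this short would mostly hold 0 calls, so these counts do not set the lists apart from other genes. The beta segments were above 1 FPKM in 58 of 252 values (23.0%), against 13.7% for the alpha segments, and their counts per library ran from 1 in DN1e 1 and DN1e 2 to 6 in DN1 ckit+ 1. Of the 13 genes of the double-positive transition, Cd3e, a CD3 chain of the receptor complex, was lower in DN1 ckit+ than in ImmV2 (adjusted p = 0.0322, limma), a call that ended without ImmV2 2 (0.176), DN1 ckit+ 1 (0.0977), DN1 ckit+ 2 (0.0644) or DN1 ckit+ 3 (0.0883). It ended too with a pseudocount of 5 FPKM (0.105), without one (0.117), with only the compared populations (0.388) and with the replicate block (0.0759). Cd3e was higher in DN4 than in DN2 (adjusted p = 0.00741) and than in DN1 ckit+ (0.00416). Themis, a signalling protein of thymocyte selection, was at 35.9, 42.7 and 33.6 FPKM in DN4 and was called higher than in DN1 ckit+ (adjusted p = 0.042), where it was listed at the lowest value. This last call ended without any 1 of the DN1e, DN1 ckit+ and DN4 libraries (adjusted p between 0.0513 and 0.108, limma), with a pseudocount of 0.1 FPKM (0.0697), without one (0.128) and with the replicate block (0.0729). The other 11 genes of that list were called in none of the 8 comparisons, and Themis was called in 1.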

How the data were processed

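The single deposited table gives log2 FPKM for 34082 gene symbols in 18 libraries, as deposited by the authors. The submitters' processing notes name Bowtie and the mouse build mm8. The sources used here do not give versions, annotation, quantifier, normalization or the way several transcripts became 1 row. Raw counts were not used, so depth is unknown and precision rests on the spread between libraries. Annotation from GENCODE M21 and RefSeq is of GRCm38, so no coordinates are printed. 1 annotated segment, Traj47, was not analysed here. 1 further B cell marker of the list is not reported here.

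Values were converted to FPKM in Python 3.11.15 with pandas 2.3.3. The 24525 genes that reached 1 FPKM in 2 or more libraries entered a test on log2(FPKM + 1) with limma 3.58.1 in R 4.3.3 (eBayes with a trend), all 18 libraries in 1 fit of 7 population means, two-sided, and p-values were adjusted by Benjamini-Hochberg over these genes. Differences on this scale understate the change of low genes. The script was tested on simulated data. Alternatives changed the pseudocount, the filter, the normalization, the call rule, the libraries in the fit, the replicate block and each library in turn.

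Values in every library are given for segments called in a comparison or by the F test, for the 6 segments of highest median (only Traj58 had a median above the lowest value, so the other 5 were not chosen by it), and for Traj61, Traj58, Traj49, Traj33, Traj18 and Traj2. The members, lists and rules were chosen with earlier results of these data known. Values of Traj60, Traj56, Traj5, Traj22, Traj39 and Traj30, of Actb, and of single B cell markers and beta segments, were chosen for the text after they had been seen.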

Additional observations from a re-analysis of the deposited data

How the results depend on the processing

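No call changed direction under the alternatives tried. With a fit of only the compared populations, limma called 0 segments in each of the 6 comparisons with ImmV2, with 9 (DN1ab), 4 (DN1d), 9 (DN1e), 10 (DN1 ckit+), 7 (DN2) and 6 (DN4) of 39 at an unadjusted p under 0.05, as were 5.3%, 4.25%, 6.67%, 6.04%, 5.26% and 6.13% of all tested genes. For DN1ab, DN1d, DN1e, DN1 ckit+ and DN2 that fit called 0 of all 24525 tested genes, so the loss was not particular to the segments. With the values as deposited, the counts became 0 for DN1d (8 of 39 at an unadjusted p under 0.05, and 6.89% of all tested genes), 2 for DN1e, 1 for DN1 ckit+, 1 for DN2 and 3 in the F test. With no filter they became 2 for DN1e, 2 for DN1 ckit+ and 2 in the F test. A pseudocount of 0.1 FPKM gave 2 for DN1 ckit+ against ImmV2 and 1 for DN4 against DN1 ckit+, and at least 1 FPKM in at least 3 libraries also gave 1 for the latter, each time Traj58. Quantile normalization, a pseudocount of 5 FPKM and no minimum difference left every count of segments within 1.5 times of that reported. The sorted values nearly coincided already, so quantile normalization could change little. The called segments exceeded the minimum difference, so dropping it could not remove a call. Both settings therefore tested the counts only weakly. Calls over all tested genes, in either direction, moved as well. With the values as deposited they fell from 81 to 12 for DN1 ckit+, from 68 to 8 for DN1d and from 145 to 46 for DN1e. With no filter they went the other way for DN1 ckit+, from 81 to 102 among 34082 genes, while the segment count fell. Why the counts moved was not tested.

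Libraries with the same replicate number did not deviate together. Deviations from the population means correlated between -0.016 and 0.017 for the 48 pairs of libraries with the same number, and between -0.022 and 0.022 for the 90 pairs with different numbers. Deviations cancel within a population, so the values for same and different numbers are tied to each other. Whether libraries shared a sort or a batch was not tested. With the replicate block the counts became 2 for DN1e, 2 for DN1 ckit+ and 2 in the F test, and other counts stayed within 1.5 times. Calls over all tested genes fell with the block too, for DN1 ckit+ from 81 to 33.

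Leaving out each library in turn gave 2 to 4 segments for DN1ab, 1 to 4 for DN1d, 2 to 7 for DN1e, 2 to 6 for DN1 ckit+, 2 to 6 for DN2 and 2 to 6 for DN4 against ImmV2, 0 to 1 for DN4 against either DN2 or DN1 ckit+, and 3 to 7 in the F test. For DN1ab the count was 4 without DN1d 1, DN1d 2, ImmV2 1, ImmV2 2 or DN4 1. For DN1d it was 4 without DN1d 1, 3 without DN1d 2, ImmV2 1 or DN4 1, and 2 without DN1e 1 or ImmV2 2. For DN1e it was 2 without DN1e 2 and 3 without DN1e 3. For DN1 ckit+ it was 2 without DN1e 2, DN1e 3 or any DN1 ckit+ library, and 3 without DN1ab 1, DN1ab 2, DN1e 1, DN2 1, DN2 3 or DN4 3. For DN2 it was 6 without ImmV2 1 and 4 without DN1d 1, DN1d 2, ImmV2 2 or DN4 1, and for DN4 it was 6 without ImmV2 1. Against DN2, DN4 had 1 without DN2 2, and against DN1 ckit+ it had 1 without any 1 of the DN2 libraries or DN4 3. The F test gave 3 without DN1e 2, DN1e 3, DN4 2, DN4 3 or any DN1 ckit+ library. Where this leaves a population with 1 library, that library is assumed to vary like the other populations. Calls over all tested genes also changed when a library was left out, by much in some fits and by little in others. Whether the segment counts moved more than those of other genes was not tested.

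The median number of segments above 1 FPKM per library was 5, and it was 5 above 0.1 FPKM, 5 above the lowest value and 3.5 above 10 FPKM. The alternatives for Trac, Cd3e and Themis were chosen after seeing the data. Without counts, a segment at the lowest value may be missing from the cells or may have been missed.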
